A study of Bos taurus with 12 samples.

Results

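The genes described here are 7 small heat shock proteins known from muscle: HSPB1, HSPB2, HSPB3, HSPB6, HSPB7, HSPB8 and CRYAB. They were taken by name from the gene table, where each has 1 row among 18436 genes, and by the gene name of each m6A peak in the peak lists of myoblasts and myotubes. The rule uses names alone and no measured value.

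Primary myoblasts came from longissimus dorsi muscle, in the methods that of a single newborn Qinchuan animal. The GM group (growth medium, day 0) was held at 80% confluence with 20% fetal bovine serum, and the DM group (differentiation medium, day 4) was a 100% confluent culture of myotubes after 4 days with 2% horse serum. Both media were DMEM/F12 with penicillin and streptomycin, so that serum, density and time in culture change together and cannot be told apart from differentiation. Each group had 3 replicates, each with an input library for mRNA levels and a library immunoprecipitated (IP) with an antibody against N6-methyladenosine (m6A), a methyl mark on adenosine in mRNA, which makes 12 libraries. The methods speak of 1 animal and no source names separate animals for the 3 replicates, so p-values measure only the spread between these cultures, which may be technical.

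Small heat shock proteins share an alpha-crystallin domain and form oligomers that bind unfolding proteins without using ATP, keeping them for refolding by HSP70 or for degradation. In striated muscle they sit on the cytoskeleton and at Z-discs, where actin, desmin, filamin and titin are among the proteins they guard. HSPB2 and HSPB3 form a complex with each other that is known from differentiating muscle cells, HSPB8 works with BAG3 in the autophagy of damaged filamin, and mutations in CRYAB, HSPB1, HSPB3 or HSPB8 cause myopathy or motor neuropathy.

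Levels are given in FPKM, fragments scaled to transcript length and to library size. The FPKM of all genes summed to 415740.2 to 434458.3 in the GM inputs and 386436.5 to 390826.9 in the DM inputs. The values used are FPKM without read counts, so no counting error is given per value, and precision is that of 3 libraries. Of 11 skeletal muscle markers, 5 were higher in DM (CKM, MYF6, MYH3, TNNC2, TNNT1) and 3 lower (ACTA1, MYF5, MYOD1). All 5 proliferation markers were lower in DM, with a summed level of 71.4 to 81.6 FPKM in GM and 5.17 to 7.76 FPKM in DM. The 8 fibroblast markers summed to 16030 to 16185 FPKM in GM and 16869 to 17963 FPKM in DM, with 0 of 8 called. Smooth muscle markers summed to 3124 to 3615 and 2577 to 2750 FPKM, with 1 of 5 tested called lower (SMTN). At an adjusted p under 0.05 from limma with no fold limit, 4 of these 5 were lower and 0 higher. By that rule 3 of the 8 fibroblast markers were higher and 1 lower. Of all tested genes, 16.1% were higher and 26.7% lower by it. The markers of heart, endothelium, fat and leukocytes each summed to at most 2.66 FPKM in any library. Most of them were too low to be tested. Only 1 heart, 0 endothelium, 1 fat and 1 leukocyte marker reached a mean of 0.5 FPKM, and 0 were called. The part of these cell mixtures in the changes below was not tested, and in bulk RNA fewer cells of a type and less RNA per cell cannot be told apart.

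Differentiation was accompanied by divergent changes within the family. HSPB3, HSPB8 and HSPB2 rose in myotubes, HSPB7 fell, and HSPB1, CRYAB and HSPB6 did not pass the test. A gene was called where limma gave an unadjusted p under 0.05 and the fold change exceeded 1.5 on the log2(FPKM + 1) scale. By this rule 3 of 7 members were higher and 1 of 7 was lower in DM. Among all 12302 tested genes 4.9% (603) were called higher and 6.97% (858) lower. All 7 members passed the filter of a mean of at least 0.5 FPKM. Their median log2 fold change was 0.30, against -0.05 over all tested genes, and it fell to 0.15 without DM replicate 2 because it is the value of HSPB6. After rescaling to TPM (a fixed sum per library) the median of all genes moved from -0.05 to 0.06, with 970 called higher and 792 lower, so that 55.1% of calls were higher in place of 41.3%. The calls of the 7 members were still 3 higher and 1 lower on that scale.

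**Figure D1:**
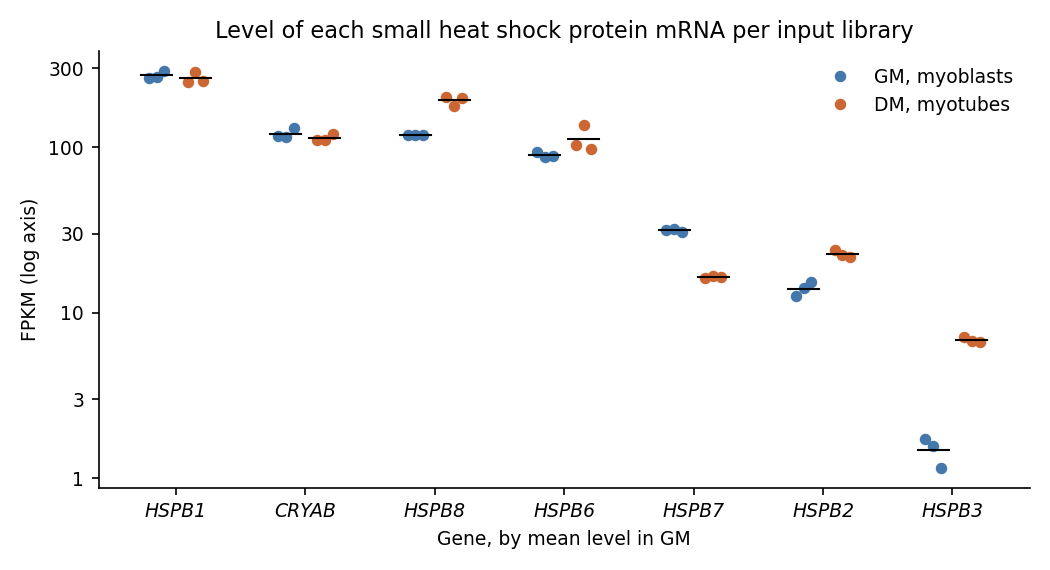
FPKM of each of the 7 genes in the 6 input libraries, on a log axis, with GM replicates in blue, DM replicates in orange and a bar at the mean of 3. The DM points of HSPB3, HSPB2, HSPB8 and HSPB6 sit above all GM points of the same gene, and those of HSPB7 below. For HSPB1 and CRYAB the ranges of the GM and DM points overlap.

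HSPB3, the most weakly expressed of the 7 genes in both groups, gave the widest rise of the family. Its level was 1.73, 1.56 and 1.15 FPKM in the GM replicates and 7.09, 6.73 and 6.65 FPKM in the DM replicates. Every DM library was above every GM library, and the means were 1.48 ± 0.296 and 6.82 ± 0.235 FPKM (SD, n = 3), a ratio of 4.6. On the log2(FPKM + 1) scale, which understates the change of so low a gene, the difference was 1.66 (SE 0.095, 95% interval 1.44 to 1.88). The Benjamini-Hochberg adjusted p from limma was 4.9e-06. In the ranking of tested genes by level, HSPB3 moved from above 12.9% of them in GM to above 45.4% in DM. The gene (ENSBTAG00000022714) is a single span of 680 bases on the minus strand at chr20:24638190-24638869 of ARS-UCD1.2, the build used for all positions here.

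HSPB2, the partner of HSPB3 in their complex, rose to a smaller degree. Its GM replicates held 12.6, 14 and 15.3 FPKM and its DM replicates 23.8, 22.2 and 21.8 FPKM. The groups did not overlap, with means of 14 ± 1.35 and 22.6 ± 1.06 FPKM (SD, n = 3) and a ratio of 1.61. The log2 difference was 0.66 (SE 0.075, 95% interval 0.48 to 0.83, limma adjusted p = 0.00023), so its interval reaches below the limit of a 1.5-fold change. HSPB2 stood at 9.45 times the level of HSPB3 in GM, and the ratio of HSPB3 to HSPB2 within a library was 0.0753 to 0.137 in GM and 0.298 to 0.305 in DM.

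HSPB8, the small heat shock protein that binds BAG3, was among the abundant members and rose as well. The 3 GM replicates each held 118 FPKM, with an SD of 0.167, and the DM replicates held 202, 177 and 199 FPKM. The lowest DM library thus lay above all GM libraries, and the DM mean was 193 ± 13.4 FPKM (SD, n = 3), 1.63 times that of GM. The log2 difference was 0.70 (SE 0.059, 95% interval 0.57 to 0.84, limma adjusted p = 4.1e-05), and this interval too starts just below the 1.5-fold limit, at a ratio of 1.48. HSPB8 (ENSBTAG00000001303) is the longest of the 7 genes, spanning 13251 bases on the minus strand at chr17:56156718-56169968.

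HSPB7, known from heart and skeletal muscle and a binding partner of filamin C, was the member that fell. Its levels were 31.8, 32 and 30.8 FPKM in GM and 16.1, 16.6 and 16.4 FPKM in DM. No library of either group came near the other group, the means being 31.5 ± 0.631 and 16.4 ± 0.277 FPKM (SD, n = 3), and GM stood at 1.93 times DM. The log2 difference was -0.91 (SE 0.047, 95% interval -1.01 to -0.80, limma adjusted p = 3e-06). The gene (ENSBTAG00000055045) lies at chr2:136053155-136057934 on the plus strand.

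HSPB6, also called HSP20 and a substrate of the cyclic nucleotide-dependent kinases, gave the least even result. The GM replicates held 93.6, 87.6 and 89 FPKM and the DM replicates 103, 136 and 97.5 FPKM. The groups did not overlap, but DM replicate 2 stood apart from the other DM libraries, and the means were 90.1 ± 3.16 and 112 ± 20.9 FPKM (SD, n = 3). The log2 difference of 0.30 (SE 0.11, 95% interval 0.03 to 0.56) was under the fold limit, with an unadjusted p of 0.031 and a Benjamini-Hochberg adjusted p of 0.068 from limma. Without DM replicate 2 the difference was 0.15, and the adjusted p was 0.017 after rescaling to TPM and 0.044 with size factors, both with the fold change still under 1.5. HSPB6 (ENSBTAG00000018598) occupies chr18:46466912-46469531 on the minus strand.

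HSPB1, also called HSP27, an actin-binding protein that MAPKAPK2 phosphorylates, was the most abundant member in both groups. It measured 263, 268 and 291 FPKM in GM and 248, 285 and 251 FPKM in DM. The groups overlapped, with means of 274 ± 15.1 and 262 ± 20.6 FPKM (SD, n = 3). The log2 difference was -0.07 (SE 0.069, 95% interval -0.23 to 0.09, limma adjusted p = 0.47), which bounds the ratio of DM to GM between 0.854 and 1.07 on the log2(FPKM + 1) scale, and its sign turned after rescaling to TPM (0.06). The whole span of HSPB1 (ENSBTAG00000011969, chr25:34345339-34347009, plus strand) lies inside an unnamed gene on the opposite strand, ENSBTAG00000050791, which was at 12.6 ± 0.557 FPKM in GM and 8.72 ± 0.824 FPKM in DM. The libraries keep the strand, but whether the counting used it is not given in the sources used here, so reads of this pair of genes may have been shared.

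CRYAB, alpha-B crystallin, the chaperone of desmin, was likewise close to even. It measured 117, 116 and 130 FPKM in GM and 111, 111 and 121 FPKM in DM. The groups overlapped at means of 121 ± 7.72 and 114 ± 5.63 FPKM (SD, n = 3). The log2 difference was -0.08 (SE 0.062, 95% interval -0.23 to 0.06, limma adjusted p = 0.32), a ratio between 0.855 and 1.04, and it too turned sign after rescaling to TPM (0.04). In all, the 3 libraries of each group did not overlap for 5 of the 7 members, and 54.1% of all tested genes show such a separation (21.1% with DM above GM and 33% with DM below).

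**Figure D2:**
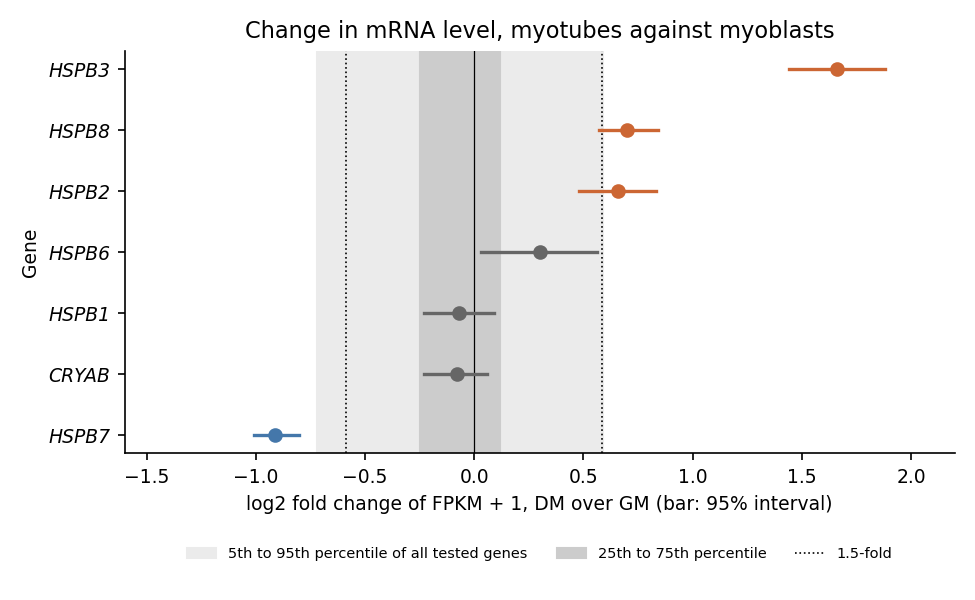
Log2 fold change of each gene, DM over GM on the log2(FPKM + 1) scale, with its 95% interval from limma; orange marks genes called higher, blue the gene called lower and grey the rest. The shaded bands hold the central range of all tested genes, -0.25 to 0.12 from the 25th to the 75th percentile and -0.72 to 0.59 from the 5th to the 95th, and HSPB3 and HSPB7 have intervals wholly outside the wider one.

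HSPB2 and CRYAB are neighbours that lie head to head, and their 5′ ends share 13 bases. CRYAB (ENSBTAG00000000434, 3 transcripts) lies on the minus strand at chr15:22242326-22246349, and HSPB2 (ENSBTAG00000000440) on the plus strand at chr15:22246337-22248004. Within a library, the ratio of HSPB2 to CRYAB was 0.108 to 0.121 in GM and 0.18 to 0.215 in DM, a log2 difference of 0.78 between the groups. The ranges of that ratio were apart, with a two-sided exact permutation p of 0.1, which is the smallest that 3 libraries against 3 allow. This ratio does not depend on how a library was scaled.

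All 21 ratios between members of the family were formed in the same way, and 17 of them were apart between the groups. Those 17 each had an exact permutation p of 0.1 (0.12 after Benjamini-Hochberg adjustment over the 21). None could thus pass a threshold of 0.05 in this design. The ratios share genes and are not independent of each other, and every ratio with HSPB3 or HSPB7 was apart. Of individual tested genes, 54.1% had groups that did not overlap. The share among ratios of other gene pairs was not tested, so the count of 17 has no background to compare with. HSPB3 over HSPB7 moved furthest, from 0.0375 to 0.0545 in GM to 0.405 to 0.441 in DM, a log2 difference of 3.17. HSPB2 stood under HSPB7 in every GM library, at 0.398 to 0.498 times its level, and above it in every DM library, at 1.33 to 1.48 times. The 4 ratios whose ranges overlapped were HSPB1 over CRYAB, HSPB8 over HSPB2, HSPB2 over HSPB6 and HSPB8 over HSPB6. The first of these was 2.24 to 2.31 in GM and 2.08 to 2.57 in DM, and HSPB8 over HSPB2 was 7.7 to 9.35 and 7.99 to 9.11, so HSPB2 and HSPB8 kept about the same ratio while both rose.

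The order of levels shifted accordingly. In GM it ran HSPB1, CRYAB, HSPB8, HSPB6, HSPB7, HSPB2 and HSPB3, where CRYAB and HSPB8 were not separated by their libraries and all other neighbours in the order were. In DM it ran HSPB1, HSPB8, CRYAB, HSPB6, HSPB2, HSPB7 and HSPB3, where CRYAB and HSPB6 were the only neighbours with overlapping libraries. HSPB1 stood above 98.1% of tested genes in GM and 98.2% in DM, while HSPB7 moved from above 83.4% to above 70.6%.

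The summed level of the 7 genes was 638, 638 and 675 FPKM in the GM libraries and 711, 756 and 713 FPKM in the DM libraries. The DM sums were all above the GM sums, at 727 ± 25.1 against 650 ± 21.8 FPKM (SD, n = 3). This sum is 0.151 to 0.155% of all FPKM in GM and 0.184 to 0.193% in DM. The make-up of the sum moved from HSPB1 (42.1% in GM, 36% in DM) and CRYAB (18.6% and 15.7%) toward HSPB8, which held 18.2% in GM and 26.6% in DM. HSPB6 held 13.9% and 15.4%, HSPB7 4.85% and 2.25%, HSPB2 2.15% and 3.11%, and HSPB3 0.229% and 0.94%.

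**Figure D3:**
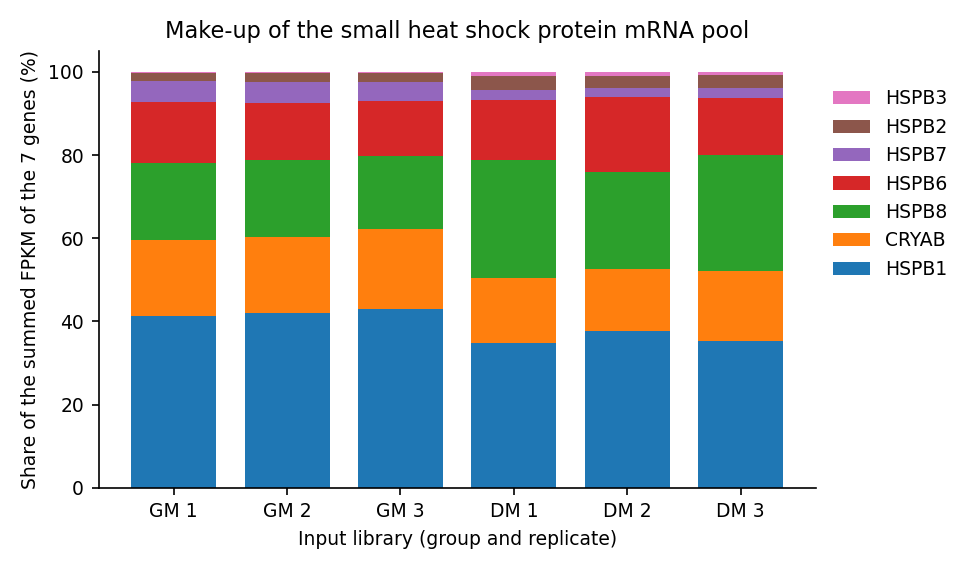
Share in percent of each of the 7 genes in their summed FPKM, 1 bar per input library. The HSPB8 segment takes 17.5 to 18.5% in the GM libraries and 23.5 to 28.4% in the DM libraries, and HSPB1 is the largest segment of every bar.

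For each member, the closest patterns among all tested genes were found by the root mean square difference of log2(FPKM + 1), centred per gene, over the 6 inputs, which is a description of 6 libraries in 2 groups. HSPB3 was closest to MSMO1 (0.034) and CYP51A1 (0.059), both enzymes of cholesterol synthesis, which went from 10.9 to 35.2 and from 11.6 to 41.3 FPKM in the group means. HSPB8 was closest to GLCE (0.021) and CTSK (0.036), the gene of the protease cathepsin K, and HSPB2 to KCTD7 (0.038) and CPZ (0.046). The added 1 shrinks the changes of weak genes, so likeness on this scale does not mean equal ratios of FPKM. KCTD7, for example, went from 1.19 to 2.41 FPKM in the group means, and HSPB2 from 14 to 22.6 FPKM. HSPB7 was closest to ADAMTS9 (0.030) and to the cell cycle phosphatase gene CDC25A (0.036). For the members with little change the nearest were EPN1 (0.021) and EPHA2 (0.024) for HSPB1, PHC2 (0.024) and MAPKBP1 (0.025) for CRYAB, and ZNF358 (0.076) and FAH (0.078) for HSPB6. Within the family, the closest were HSPB1 with CRYAB (0.090) and HSPB2 with HSPB8 (0.096).

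The chaperones and clients that small heat shock proteins work with were read from 9 lists of 100 genes, of which 94 have a row and 91 were tested, in 92 rows because HSPD1 has 2. Of these, 9 were called higher and 4 lower in DM, and the median log2 difference was -0.07, beside the shares of all genes given above. HSPB11, an intraflagellar transport protein that bears the family name, was level at 11 ± 0.291 and 11.2 ± 0.758 FPKM (SD, n = 3). CRYAA, HSPB9 and ODF1 were not analysed here.

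Among the HSP70 and HSP110 proteins, which take over substrates held by small heat shock proteins, 1 of 13 tested was called higher and 0 lower. HSPA1A, the stress-inducible HSP70, went from 11.1, 11.4 and 12.7 FPKM to 24.1, 23.6 and 22.2 FPKM (log2 difference 0.93, SE 0.065, limma adjusted p = 1.5e-05). The most abundant, HSPA5 of the endoplasmic reticulum, was at 1097 ± 38.1 and 755 ± 50.5 FPKM (log2 difference -0.54, adjusted p = 0.00027), under the fold limit. Of 16 HSP40 co-chaperones 1 was called, DNAJB4, which rose from 71.9 ± 11 to 122 ± 7.68 FPKM and was also the most abundant. Among 11 genes of the HSP90 system, SMYD1, a muscle methyltransferase that acts with the myosin chaperones, rose from 3.26 ± 0.186 to 10.5 ± 0.761 FPKM. HSP90B1 of the endoplasmic reticulum, named after its values were seen, fell from 563 ± 26.4 to 329 ± 1.65 FPKM, and HSP90AB1 was at 677 ± 18.2 and 526 ± 2.08 FPKM.

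The chaperonins, folding chambers of mitochondria and cytosol, had 0 of 11 rows past the fold limit in either direction, with a median log2 fold change of -0.32. At an adjusted p under 0.05 from limma all 11 rows were lower in DM (26.7% of all tested genes were), 9 with size factors and 7 after rescaling to TPM. HSPD1 was the most abundant and the most changed of them, at 178 ± 13.8 and 124 ± 1.89 FPKM in its first row.

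The list that joins chaperone-assisted selective autophagy, the route that HSPB8 serves, with BAG partners had 15 tested genes. Of these, 1 was called higher and 0 lower (2 higher after rescaling to TPM or with size factors), with a median of 0.09. WWTR1, the gene called and a transcriptional coactivator, rose from 30 ± 0.342 to 53.9 ± 0.79 FPKM (log2 difference 0.82, limma adjusted p = 3.4e-06). The most abundant gene, the autophagy receptor SQSTM1, was at 78.7 ± 2.07 and 99.4 ± 3.77 FPKM, a log2 difference of 0.33 under the fold limit. BAG3 itself, named after its values were seen, was at 31.5 ± 1.14 FPKM in GM and 28.4 ± 0.663 FPKM in DM, a log2 difference of -0.14. The gene of the HSPB8 partner was thus not called while HSPB8 rose.

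Of 10 cytoskeletal clients tested, 3 were called higher and 3 lower (2 lower after rescaling to TPM). The Z-disc gene MYOT rose from 9.26 ± 0.466 to 44.2 ± 2.04 FPKM (log2 difference 2.14, SE 0.059, limma adjusted p = 2.1e-07). The other Z-disc genes called, ACTN2 and LDB3, rose by 1.81 and 1.43 on the log2 scale. VIM, the intermediate filament of undifferentiated cells and the most abundant client, fell from 2758 ± 109 to 1663 ± 103 FPKM, and TUBB and ACTB had log2 differences of -0.99 and -0.67. ACTN2, LDB3, TUBB and ACTB were named after their values were seen, and DES, the client of CRYAB, was at 453 ± 9.86 and 489 ± 4.28 FPKM. FLNA and TTN were not analysed here.

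Of the 4 tested genes in the list of heat shock transcription factors and HSBP1, HSF4 was called higher. Its level was 1.94, 1.34 and 1.45 FPKM in GM and 3.45, 5.43 and 5.3 FPKM in DM (log2 difference 1.14, SE 0.15, limma adjusted p = 0.00057). HSBP1, a binding protein of heat shock factor and the most abundant of that list, was at 54.4 ± 0.569 and 60.7 ± 1.27 FPKM. Among 11 kinases that phosphorylate small heat shock proteins, 1 was called (3 after rescaling to TPM, 2 with size factors). It was PRKG1, the cyclic GMP-dependent kinase, which rose from 3.02 ± 0.497 to 5.19 ± 0.455 FPKM. MAPKAPK2, the kinase of HSPB1, was at 57.2 ± 2.37 and 51.5 ± 5.57 FPKM, with overlapping groups.

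The m6A lists hold 1 set of peaks per group, which the authors called after pooling its libraries, so that a peak has 1 fold enrichment of IP over input and no replicate error. The GM list has 8 peaks in 6 of the 7 members, all but CRYAB. The DM list has 10 peaks in all 7. Of all tested genes 70.9% carry a GM peak, 78.7% a DM peak and 68.6% a peak in both lists. With fold enrichments under 2 set aside, each list has 7 member peaks and CRYAB has none.

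The deposited annotation labels 6 of the 8 GM peaks and 6 of the 10 DM peaks of the family 3′UTR, against 42.6% and 45.3% of all peaks. Each peak has 1 label, which does not mean that it is confined to that UTR. The HSPB3 peak, labelled 3′UTR in GM and 5′UTR in DM, takes up 78.2% and 95.6% of its gene. The other member peaks are annotated to a 5′UTR. A member peak ended exactly at the annotated 3′ end of the gene in 5 of 8 cases in GM and 7 of 10 in DM, where 21.1% and 28.8% of all peaks do so. Median fold enrichment was 3.13 for member peaks against 3.27 for all peaks in GM, and 2.99 against 3.38 in DM.

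**Figure D4:**
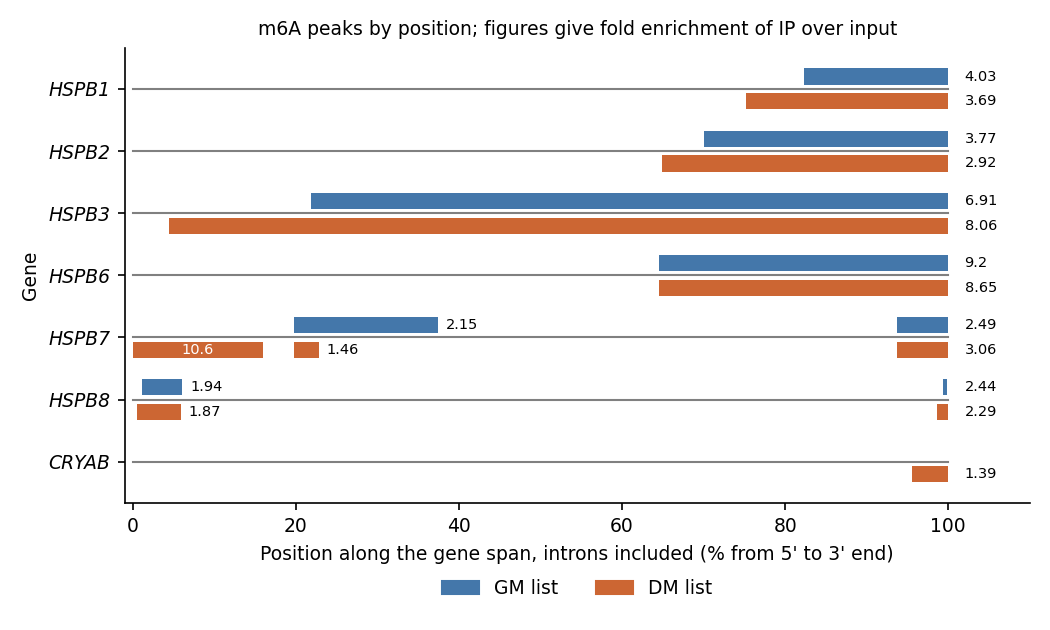
Position of each m6A peak along its gene in percent of the gene span from the 5′ to the 3′ end, introns included, with GM peaks in blue above the line, DM peaks in orange below it and the fold enrichment printed at each peak. HSPB1, HSPB2, HSPB3 and HSPB6 each carry 1 peak at the 3′ end in both lists, HSPB7 and HSPB8 carry peaks at both ends, and CRYAB carries a DM peak alone.

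HSPB6 had the most enriched of the 3′ peaks, at chr18:46466912-46467841 in both lists, a block of 930 bases with identical borders. Its fold enrichment was 9.2 in GM, above 90.8% of all GM peaks, and 8.65 in DM, above 89.1% of all DM peaks. HSPB3 followed, with 6.91 in GM over 532 bases (chr20:24638190-24638721) and 8.06 in DM over 650 bases (chr20:24638190-24638839). The gene is only 680 bases long, so that its peak takes up 78.2% of it in GM and 95.6% in DM, and the annotation calls the same region 3′UTR in the GM list and 5′UTR in the DM list.

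HSPB1 carried a 3′UTR peak of 295 bases in GM (chr25:34346715-34347009) and of 325 exon bases in DM (chr25:34346595-34347009), with fold enrichments of 4.03 and 3.69. HSPB2 carried one of 498 bases in GM (chr15:22247507-22248004) and of 586 bases in DM (chr15:22247419-22248004), at 3.77 and 2.92. In both genes the DM peak contained the whole GM peak. The HSPB2 peak lies at the far end of the gene from the 13 bases shared with CRYAB.

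HSPB8 carried a peak near each end. The 5′UTR peak, chr17:56169164-56169819 in GM and chr17:56169194-56169908 in DM, had fold enrichments of 1.94 and 1.87. At the 3′ end the GM peak covered 60 bases (chr17:56156748-56156807) and stopped 30 bases before the end of the gene, while the DM peak covered 180 bases (chr17:56156718-56156897) to the end, at 2.44 and 2.29. Both HSPB8 peaks were thus less enriched than the median peak of their lists.

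HSPB7 had the most varied peaks. Its 3′UTR peak covered the same 300 bases (chr2:136057635-136057934) in both lists, at 2.49 in GM and 3.06 in DM. Its 5′UTR peak at chr2:136054097-136054942 in GM, with 329 exon bases in 2 blocks and a fold enrichment of 2.15, met a DM peak of 150 bases at chr2:136054097-136054246 with 1.46. The DM peak lies wholly inside the GM peak and covers 45.6% of its bases. A further 5′ peak stood in the DM list alone, at chr2:136053155-136053917 with a fold enrichment of 10.6, the highest of the member peaks. Its deposited p-value of 0.0044 is the weakest of them, with a log10 false discovery rate of -1.84, and it does not pass a false discovery rate of 0.001, which the other 9 DM peaks of the family do.

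The CRYAB peak of the DM list, chr15:22242326-22242505, covers the last 180 bases of the gene and is labelled 3′UTR. Its fold enrichment was 1.39, above 6.12% of DM peaks, with a log10 false discovery rate of -14.5. CRYAB mRNA was near even between the groups, and at 1 value per list the presence of a peak in DM and not in GM has no error attached.

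Peaks were paired where exon blocks of one strand shared 1 base or more, which gave 8 pairs of 1 GM and 1 DM peak in the family. None of the 8 differed by over 1.5-fold in enrichment. Among all 10239 such pairs 14.2% were over 1.5-fold higher and 10.8% over 1.5-fold lower in DM. DM over GM came to under 1 in 6 pairs and over 1 in 2, and 42.9% of all pairs were under 1. The nearest to the limit was the 5′ pair of HSPB7, with GM at 1.47 times DM (log2 ratio -0.56), and it passed at -0.63 once the median of all pairs, 0.07, was subtracted. HSPB2 followed with a log2 ratio of -0.37, then HSPB7 at the 3′ end with 0.30, HSPB3 with 0.22 and HSPB1 with -0.13. The pairs of HSPB6 and HSPB8 lay between -0.09 and -0.05.

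**Figure D5:**
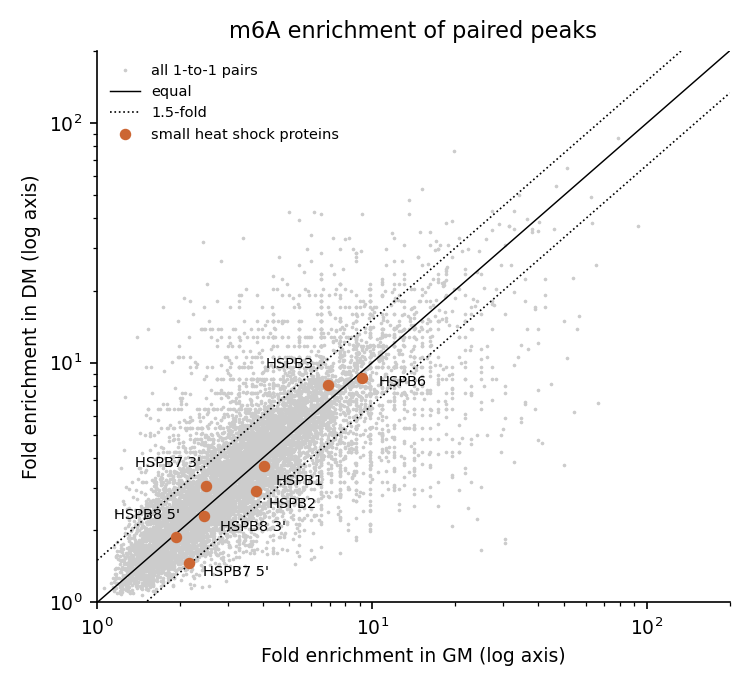
Fold enrichment of paired m6A peaks in GM and DM, both on log axes, with all 10239 pairs in grey and the 8 pairs of the family in orange. All 8 lie between the dotted lines that mark a 1.5-fold difference, the 5′ pair of HSPB7 closest to the lower line.

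Set side by side, the members whose mRNA was called had no paired m6A peak past the limit before centring. Centred on the median of all pairs, the 5′ pair of HSPB7 passed it, at a log2 ratio of -0.63. HSPB7 also had a 5′ peak in the DM list alone, with a fold enrichment of 10.6 and a log10 false discovery rate of -1.84. HSPB3 rose 4.6-fold in mean FPKM with enrichments of 6.91 and 8.06, and HSPB2 rose 1.61-fold with 3.77 and 2.92. HSPB8 rose 1.63-fold with ratios of DM to GM of 0.964 at the 5′ end and 0.939 at the 3′ end. HSPB7, which fell, had ratios of 0.679 at its 5′ pair and 1.23 at its 3′ pair, in opposite directions. With 1 enrichment value per group, no test of these ratios was possible.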

How the data were processed

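Input and IP libraries of 3 GM and 3 DM replicates were prepared from poly(A) RNA by the strand-specific dUTP method. According to the study's methods, reads were trimmed with Trimmomatic and aligned to ARS-UCD1.2 by HISAT2, and alignments were filtered with Sambamba; the submitters' processing notes also name fastp, cutadapt and HOMER. Gene levels of the 6 inputs are FPKM as deposited, which the authors computed with StringTie. The deposited peak lists hold the authors' exomePeak fold enrichment, a linear ratio of IP over input, on pooled libraries, with ChIPseeker annotation. The score column of the deposited lists holds the authors' unadjusted p-value of each peak. The deposited log10 columns hold the authors' log10 p and log10 false discovery rate. The DM list repeats 2 entries, kept as they stand.

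Expression was fitted with limma 3.58.1 in R 4.3.3 (moderated, with a trend) on log2(FPKM + 1) for the 12302 genes whose mean reached 0.5 FPKM, with Benjamini-Hochberg adjustment over all of them. The study fitted a count model, while the values used here are FPKM, hence limma. Thresholds are the study's. Peak pairs and ratios were computed with scipy 1.17.1, numpy 2.4.6 and pandas 2.3.3 under Python 3.11.15; matplotlib 3.10.9 drew the figures. On data simulated with normal noise for the DM against GM comparison of 12302 genes, 199 of 200 genes changed 2-fold were recovered, with 17 unchanged genes called. The changed genes were drawn only from genes well above the filter. Recovery of weakly expressed genes, or of changes under 2-fold, was therefore not examined.

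The members and lists were chosen with earlier results of these data known. Besides all members, the text names for each list the gene of highest mean FPKM and the gene of largest absolute log2 fold change, the 2 genes most like each member, and neighbours within 5000 bases. Alternatives covered the pseudocount, filter, scaling, replicate block, variance trend, thresholds, each library left out, peak strictness, overlap and centring. No genome of the build was used, so no sequences or motifs were examined. FPKM carry no read counts, and precision rests on 3 libraries per group.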

Additional observations from a re-analysis of the deposited data

How the results depend on the processing

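The 4 calls among the members held under every pseudocount, filter, scaling, variance trend and left-out library tried. HSPB2 came closest to losing its call, with a log2 difference of 0.59 without GM replicate 1, barely above the 1.5-fold limit. With a fold limit of 2 in place of 1.5, 1 member was higher (HSPB3) and 0 lower, with 232 and 275 of all genes and 5 partner genes. At an adjusted p under 0.05 from limma with no fold limit, 1980 genes were higher, 3288 lower and 53 partner genes called in place of 13. After rescaling to TPM, HSPB1 (0.06) and CRYAB (0.04) turned sign without being called, the median of the members was 0.42, that of all genes 0.06, and 970 genes were called higher. Leaving out 1 library at a time gave 3 members higher and 1 lower each time, 608 to 629 genes higher, 862 to 896 lower, 12 to 16 partner genes and a member median of 0.15 (without DM replicate 2) to 0.39 (without DM replicate 3). Libraries of the same replicate number did not deviate together from their group means (correlations -0.079, -0.123 and -0.208). Within a group the 3 deviations cancel, so these correlations cannot settle whether GM and DM replicates of the same number shared a culture. With the replicate number as a block, 3 members were higher and 1 lower, with 608 and 865 of all genes, and no member's call changed. Centring the peak ratios on the median of all pairs put 1 member pair past 1.5-fold, and no replicate error or depth is attached to any peak.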

Other observations

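Other genes lie close to members of the family. C15H11orf52, on the same strand as HSPB2 and 3265 bases beyond it, was at 0.0701 ± 0.0253 FPKM in GM and 0.451 ± 0.0823 FPKM in DM (SD, n = 3), under the filter of the test. LIN37, a subunit of a cell cycle repressor complex whose 3′ end lies 56 bases from that of HSPB6 on the opposite strand, was at 7.39 ± 1.62 and 9.8 ± 0.804 FPKM, with a log2 difference of 0.38 (limma, Benjamini-Hochberg adjusted p = 0.053). PROSER3, on the other side of HSPB6 at 1815 bases, was at 1.24 ± 0.159 and 1.11 ± 0.139 FPKM. Upstream of HSPB7, ENSBTAG00000034674 was at 0.0978 ± 0.0411 and 0.111 ± 0.115 FPKM.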
